A study of Homo sapiens with 42 samples.

Results

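DUSP4, DUSP5, DUSP6, SPRY2, SPRY4, SPRED1, SPRED2, ETV4, ETV5 and PHLDA1 are genes that are switched on by, or act to restrain, signalling through the kinase ERK. They were taken as a set of 10 gene symbols from the 28266 symbols of the deposited count table. The rule named the symbols by their known roles in the pathway and used no measured value, though earlier results of these data were known when it was written. All 10 were detected in every library and passed the filter on low counts.

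The series measured messenger RNA in IMR90 human lung fibroblasts driven into senescence, a lasting arrest of the cell cycle, in order to study what depletion of the COPI vesicle coat does to such cells. There were 42 libraries in 12 groups. In oncogene-induced senescence, IMR90 ER:RAS cells received 100 nM 4OHT (4-hydroxytamoxifen) or its solvent DMSO, with 3 libraries in each of 6 groups. In therapy-induced senescence, the inducer was bleomycin, a drug that breaks DNA, given to IMR90 cells for 24 h at 50 µg/ml, and controls had DMSO, with 4 libraries in each of 6 groups. Within each state the cells carried a control shRNA or one of 2 shRNAs against COPB2, a COPI subunit. All 42 cultures, controls included, were kept for 7 days after treatment, then given doxycycline at 1 µg/ml for 72 h to switch the shRNA on, and were collected on day 10. The labels give the genotype of both lines as WT. IMR90 ER:RAS cells express a fusion of the oestrogen receptor with RAS that becomes active when it binds 4OHT, and whether the line was 1 clone or a pool was not stated in the sources used here. The labels did not say whether libraries of a group came from separate cultures, whereas the supplement of the study describes its replicates of the COPB2 knockdown in senescent cells as independent experiments. The p-values below measure the spread between these libraries.

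ERK is the last kinase of a chain that runs from growth factor receptors through RAS, RAF and MEK. When ERK is active it switches on genes whose products shut the same chain down at several steps, so their transcripts are widely read as a gauge of ERK output. MAP kinase phosphatases remove the phosphates that activate ERK, Sprouty and SPRED proteins act upstream at the level of receptors, RAS and RAF, and the ETS factors ETV4 and ETV5 carry the transcriptional response. In fibroblasts, oncogenic RAS is known to raise this feedback strongly and to end in senescence.

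On the GRCh38.p14 assembly, RefSeq placed DUSP5 (ENSG00000138166) at chr10:110497907-110511533, DUSP6 (ENSG00000139318) at chr12:89347235-89352501, SPRY2 (ENSG00000136158) at chr13:80335976-80341126 and SPRY4 (ENSG00000187678) at chr5:142310430-142325021. The others were DUSP4 (ENSG00000120875), SPRED1 (ENSG00000166068) at chr15:38252836-38357249, SPRED2 (ENSG00000198369) at chr2:65307175-65432599, ETV4 (ENSG00000175832) at chr17:43527846-43546340, ETV5 (ENSG00000244405) at chr3:186046314-186109089 and PHLDA1 (ENSG00000139289) at chr12:76025447-76031776.

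Stretches around 3 start sites are shown because these genes stand for the contrast in the data, DUSP6 and SPRY2 having risen in both kinds of senescence and SPRED1 in neither. Each holds the 250 bases before the RefSeq start site and the first 30 bases of the transcript, read 5′ to 3′ on the gene's own strand of GRCh38.p14. SPRY2 had 3 start sites with a window, and the one farthest upstream is shown. DUSP6 lay on the minus strand at chr12:89352472-89352751, SPRY2 on the minus strand at chr13:80341097-80341376 and SPRED1 on the plus strand at chr15:38252586-38252865. Capitals mark matches to the octamer bound by CIC (capicua), a repressor that ERK signalling releases from its targets.
DUSP6: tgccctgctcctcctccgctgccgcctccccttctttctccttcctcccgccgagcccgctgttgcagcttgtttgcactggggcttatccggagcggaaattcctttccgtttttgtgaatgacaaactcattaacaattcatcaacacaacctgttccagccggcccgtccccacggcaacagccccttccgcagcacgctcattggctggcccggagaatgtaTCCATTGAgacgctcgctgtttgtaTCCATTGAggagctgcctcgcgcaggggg
SPRY2: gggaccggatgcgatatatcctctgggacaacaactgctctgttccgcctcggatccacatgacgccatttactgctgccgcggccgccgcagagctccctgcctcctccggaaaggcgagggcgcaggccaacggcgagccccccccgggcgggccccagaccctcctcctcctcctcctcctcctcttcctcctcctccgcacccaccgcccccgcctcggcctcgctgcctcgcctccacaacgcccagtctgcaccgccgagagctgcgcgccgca
SPRED1: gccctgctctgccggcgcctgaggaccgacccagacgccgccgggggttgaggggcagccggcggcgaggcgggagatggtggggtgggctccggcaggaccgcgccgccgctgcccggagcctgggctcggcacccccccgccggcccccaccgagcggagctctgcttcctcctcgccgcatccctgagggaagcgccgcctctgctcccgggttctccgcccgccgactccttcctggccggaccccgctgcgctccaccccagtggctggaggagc

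Windows of 300 bases (250 before the start and 50 from it on) were searched on both strands, and 9 windows belonged to 6 of the genes, which were DUSP6, SPRY2, SPRY4, SPRED1, SPRED2 and PHLDA1. The CIC octamer, spelled TGAATGAA, TGAATGGA, TCAATGAA or TCAATGGA, was found in 1 of the 9 windows and in 3.77% of all 35116 windows. That window was DUSP6, which held it as TCCATTGA on the reverse strand at 2 places, 24 to 17 bases before the start base and 1 to 8 bases after it. The AP-1 motif TGANTCA was found in 1 of the 9 windows, at a second SPRED2 start site, against 7.71% of all windows. The ETS core CCGGAAG and the cyclic AMP response element TGACGTCA were in none of the 9, against 10.3% and 1.85% of all windows. No motif overlapped another in the printed stretches, and a match is only a match of letters.

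The libraries held 13148194 to 23597310 counts each. HRAS had 47753 to 75170 counts per library in ER:RAS cells and 461 to 2656 in IMR90 cells, and ESR1, the oestrogen receptor gene, had 21136 to 39952 and 0 to 11, so the 18 ER:RAS libraries carried the fusion transcript as labelled. COPB2 stood at 267 to 620 CPM (counts scaled to a library of 1000000, with sizes adjusted by the TMM method) with the control shRNA and at 33.9 to 122 CPM with either COPB2 shRNA. The TMM factor was lowest in ER:RAS 4OHT control replicate 1, at 0.611, beside 0.831 and 0.907 in replicates 2 and 3 of that group. The fibroblast genes COL1A1 and VIM were abundant everywhere, at 936 to 6071 and 3630 to 19830 CPM. Not all fibroblast markers were. DCN stood at 6.66 to 13.3 CPM in ER:RAS 4OHT libraries and at 1358 to 2110 CPM in ER:RAS DMSO libraries. For COL3A1 the ranges were 48.8 to 118 and 2075 to 2829 CPM, and for LUM 3.37 to 9.79 and 34.3 to 141 CPM. THY1 overlapped between these states, at 541 to 1042 and 613 to 1172 CPM. Markers of epithelial cells (EPCAM, CDH1, SFTPC, SCGB1A1) summed to at most 1.82 CPM in any library, and those of endothelial cells (PECAM1, CDH5, VWF) to at most 13.7 CPM. Of the leukocyte markers, PTPRC and CD3E did not exceed 1.964 and 0.34 CPM. CD68, the other leukocyte marker, stood between 12.1 and 120 CPM.

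With 4OHT in ER:RAS cells, 7 of the 10 genes were higher and none was lower. No cells without the fusion received 4OHT. The effects of RAS activity, of 4OHT itself and of the senescent state therefore cannot be told apart. DUSP4 rose 16.8-fold, DUSP5 and SPRY2 each about 10.1-fold, DUSP6 9.87-fold, SPRY4 5.28-fold, ETV4 4.57-fold and PHLDA1 1.76-fold. SPRED1, SPRED2 and ETV5 did not pass the test. The comparison was 4OHT against DMSO in ER:RAS cells with the control shRNA, 3 libraries each, and genes passed when edgeR's quasi-likelihood test, adjusted over all 14297 genes tested, gave p under 0.05. Of all genes, 15.5% were called higher. The median log2 fold change was 2.30 over the 10 genes and −0.08 over all genes tested. The same 7 genes were those whose 4OHT libraries all lay above all DMSO libraries, against 18% of all genes.

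All 3 phosphatases rose, DUSP4 by the largest step of the 10 genes. DUSP4, a nuclear phosphatase of ERK, stood at 149, 119 and 135 CPM in the 3 4OHT libraries and at 6.67, 9.12 and 6.74 CPM in the 3 DMSO libraries. The groups were far apart, and the log2 fold change was 4.07 ± 0.19 (SE, adjusted p = 6.63e-10). DUSP5, also a nuclear ERK phosphatase, stood at 669.9, 512 and 648 CPM with 4OHT and at 53.5, 61.1 and 55.8 CPM with DMSO. Its lowest 4OHT library exceeded every DMSO library, and on the log2 scale the step was 3.33 ± 0.20 (SE, adjusted p = 7.77e-09). DUSP6, the cytoplasmic ERK phosphatase, stood at 328, 478 and 669 CPM with 4OHT and at 47.9, 25.2 and 66.0 CPM with DMSO. The groups did not overlap, but the libraries of each group spread widely, and the log2 fold change of 3.30 carried an SE of 0.52 (adjusted p = 0.0001397).

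Among the upstream inhibitors, both Sprouty genes rose and both SPRED genes did not pass the test. SPRY2, which blocks the passage of the signal from receptor to RAS and RAF, stood at 223, 198 and 229.9 CPM with 4OHT and at 17.98, 20.02 and 21.99 CPM with DMSO. SPRY4, of the same family, stood at 181, 191 and 243 CPM with 4OHT and at 36.6, 38.5 and 34.3 CPM with DMSO. Neither gene's groups overlapped, and the log2 fold changes were 3.34 ± 0.21 (SE, adjusted p = 1.399e-08) and 2.40 ± 0.19 (SE, adjusted p = 1.45e-07). SPRED1, which recruits the RAS inactivator neurofibromin to the membrane, stood at 25.5, 57.2 and 92.1 CPM with 4OHT and at 42.4, 17.5 and 49.1 CPM with DMSO. Its groups overlapped, and the log2 fold change was 0.59 ± 0.62 (SE, adjusted p = 0.510), with a 95% interval of the fold from 0.651 to 3.47. SPRED2, its paralogue, stood at 48.7, 73.0 and 88.9 CPM with 4OHT and at 45.9, 52.5 and 34.8 CPM with DMSO. Replicate 1 with 4OHT lay among the DMSO libraries, and the log2 fold change was 0.58 ± 0.23 (SE, adjusted p = 0.0644). Without that library SPRED2 passed the test, at 0.84 (adjusted p = 0.00517), as it did without DMSO replicate 2 (0.0391). SPRED2 also passed with DESeq2's size factors (0.0268), with its Wald test (0.0118) and as the mean over the 3 shRNAs (0.62, adjusted p = 0.000900). No share of all genes called is given for these alternatives, so the gained calls cannot be read as particular to SPRED2. That average over the 3 shRNAs, used again below, was chosen after seeing the data and counted the libraries of the 3 shRNAs as independent. Libraries with the same replicate number mostly deviated together, so its SEs may be too small.

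The ETS factors parted company. ETV4 stood at 175, 136 and 87.6 CPM with 4OHT and at 23.1, 34.6 and 23.4 CPM with DMSO, a step of 2.19 ± 0.25 on the log2 scale (SE, adjusted p = 6.61e-06). Its groups did not overlap. ETV5, of the same PEA3 subfamily, stood at 139, 115 and 108 CPM with 4OHT and at 93.7, 132 and 78.9 CPM with DMSO. Here the groups overlapped, and the log2 fold change was 0.16 ± 0.17 (SE, adjusted p = 0.498), with a 95% interval of the fold from 0.894 to 1.40. PHLDA1, a pleckstrin-homology-like protein induced by growth factors and known to restrain receptor signalling, stood at 1157, 1072 and 1225 CPM with 4OHT and at 623, 592 and 623 CPM with DMSO. The groups lay apart by a modest step of 0.81 ± 0.17 (SE, adjusted p = 0.00133) on the log2 scale, and the call was lost when the other ER:RAS libraries were kept out of the fit (0.84, adjusted p = 0.0647).

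**Figure D1:**
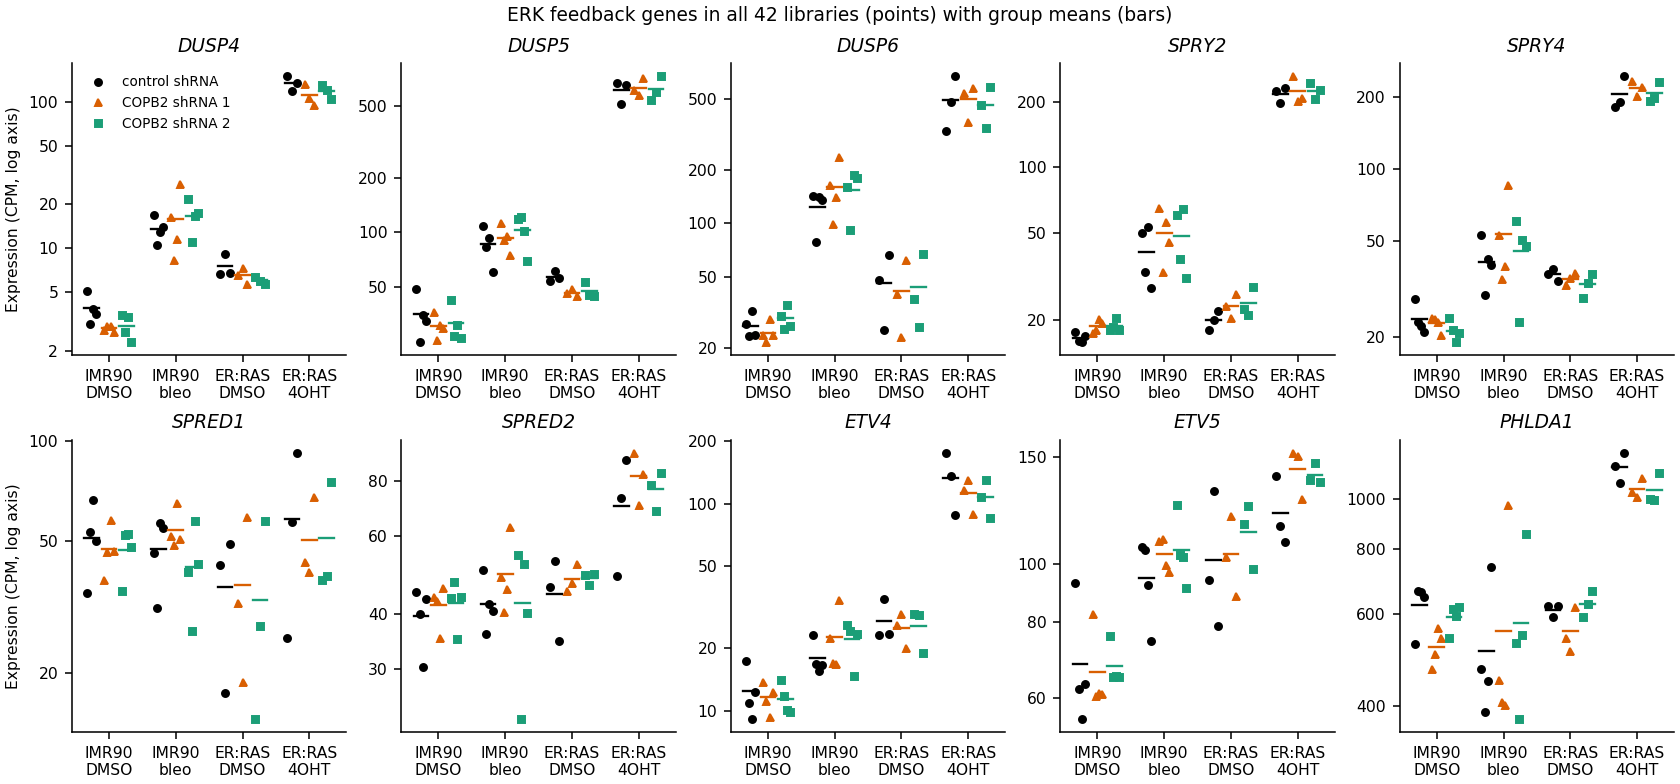
CPM (log axis) of the 10 genes in every library, by state on the x axis and by shRNA in colour, with bars at the group means (n = 3 in ER:RAS groups, n = 4 in IMR90 groups). The ER:RAS 4OHT libraries stand above all others for DUSP4 (95.3 to 149 CPM), DUSP5, DUSP6, SPRY2, SPRY4, ETV4 and PHLDA1, whereas SPRED1 libraries of all states overlap.

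Bleomycin raised 6 of the 10 genes, with smaller steps. DUSP6 rose 4.58-fold, DUSP4 3.43-fold, SPRY2 2.42-fold, DUSP5 2.41-fold, SPRY4 1.71-fold and ETV5 1.36-fold. SPRED1, SPRED2, ETV4 and PHLDA1 did not pass the test, and none fell. The comparison was bleomycin against DMSO in IMR90 cells with the control shRNA, 4 libraries each, over 14783 genes tested, of which 15.4% were called higher. The median log2 fold change was 0.64 over the 10 genes and −0.01 over all genes. DUSP4, DUSP5, DUSP6, SPRY2 and SPRY4 had every bleomycin library above every DMSO library, a pattern shown by 14.1% of all genes.

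DUSP6 stood at 143, 78.7, 140.4 and 135 CPM with bleomycin and at 27.1, 23.4, 32.3 and 23.5 CPM with DMSO. Replicate 2 was the low library of the bleomycin group and still exceeded all DMSO libraries, and the log2 fold change was 2.20 ± 0.25 (SE, adjusted p = 1.205e-06). DUSP4 stood at 16.999, 10.5, 12.9 and 13.9 CPM with bleomycin and at 5.15, 3.03, 3.86 and 3.58 CPM with DMSO. The log2 fold change was 1.78 ± 0.29 (SE, adjusted p = 7.87e-05) at levels below those of every RAS-senescent library. DUSP5 stood at 108, 82.8, 93.0 and 60.5 CPM with bleomycin and at 48.8, 24.7, 34.9 and 32.3 CPM with DMSO. Replicate 4 with bleomycin was the nearest to the DMSO group, and the log2 fold change was 1.27 ± 0.22 (SE, adjusted p = 0.000154).

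SPRY2 stood at 49.8, 33.03, 53.1 and 28.004 CPM with bleomycin and between 15.8 and 17.5 CPM with DMSO, a step of 1.28 ± 0.23 on the log2 scale (SE, adjusted p = 0.000193). SPRY4 stood at 53.1, 29.9, 42.1 and 39.8 CPM with bleomycin and between 20.96 and 28.7 CPM with DMSO. Its step of 0.77 ± 0.27 (SE, adjusted p = 0.0321) no longer passed when any one of 5 libraries was left out, with adjusted p between 0.0538 and 0.101. These were bleomycin replicates 1 and 3 and DMSO replicates 2, 3 and 4. ETV5 stood at 106, 105, 92.2 and 74.4 CPM with bleomycin and at 92.7, 61.9, 55.4 and 63.1 CPM with DMSO. The groups overlapped through DMSO replicate 1, and the step of 0.44 ± 0.16 on the log2 scale (SE, adjusted p = 0.0407) lost its call with no filter on low counts (adjusted p = 0.0857), with only the compared libraries in the fit (0.103), and without bleomycin replicate 1, 2 or 3 or DMSO replicate 2, 3 or 4 (0.0543 to 0.103).

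ETV4 stood at 23.1, 16.9, 15.6 and 16.7 CPM with bleomycin and at 17.4, 10.9, 9.15 and 12.3 CPM with DMSO. The overlap came from replicate 1 of the DMSO group, and the log2 fold change was 0.52 ± 0.25 (SE, adjusted p = 0.122). Without that library the log2 fold change was 0.72 (adjusted p = 0.0361). SPRED1 stood between 31.5 and 56.5 CPM with bleomycin and between 34.9 and 66.3 CPM with DMSO, and SPRED2 between 35.9 and 50.2 CPM and between 30.3 and 44.7 CPM. Their groups overlapped throughout, with log2 fold changes of −0.15 ± 0.22 and 0.06 ± 0.22 (SE, adjusted p = 0.665 and 0.862).

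PHLDA1 stood at 471, 390.2, 447 and 739 CPM with bleomycin and at 527, 666, 664 and 649 CPM with DMSO, a log2 difference of −0.33 ± 0.27 (SE, adjusted p = 0.395). Bleomycin replicates 1, 2 and 3 were lower than all DMSO libraries and replicate 4 was higher than all. With the COPB2 shRNAs bleomycin replicate 4 was also above all DMSO libraries, at 972 and 857 CPM, whereas the other 9 bleomycin libraries of the 3 shRNAs lay between 378 and 549 CPM and in part within the range of the DMSO libraries. CXCL8, a secreted chemokine of senescent cells, moved with it, at 1146, 8651 and 4269 CPM in those 3 libraries, between 37.0 and 219.6 CPM in the other 9 and between 0.65 and 3.03 CPM in IMR90 DMSO libraries. Its part in the result was not tested. Without bleomycin replicate 4 of the control shRNA the PHLDA1 log2 fold change was −0.53 (adjusted p = 0.152), and 6 of the 10 genes were called. The share of all genes called in that fit is not given.

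The 2 responses could be set against each other only across lines, since the oncogene was carried by one line and bleomycin was given to the other, so line and treatment cannot be told apart. The RAS response was larger than the bleomycin response for 6 genes, against 8.14% of all 15299 genes tested. On the log2 scale the excess was 2.36 ± 0.37 for DUSP4, 2.13 ± 0.30 for DUSP5, 2.13 ± 0.31 for SPRY2, 1.69 ± 0.34 for SPRY4, 1.76 ± 0.37 for ETV4 and 1.203 ± 0.33 for PHLDA1 (SE, adjusted p between 2.40e-06 and 0.00809). The median over the 10 genes was 1.45, beside −0.03 over all genes.

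DUSP6 was the one strongly induced gene whose excess did not pass the test, at 1.18 ± 0.48 (SE, adjusted p = 0.0770), with a 95% interval of the ratio of folds from 1.19 to 4.33. It passed with DESeq2's Wald test (1.23, adjusted p = 0.0489), without 4OHT replicate 1 (1.41, adjusted p = 0.0416) or without ER:RAS DMSO replicate 3 (1.53, adjusted p = 0.0309), and as the mean over the 3 shRNAs, chosen after seeing the data (1.01, adjusted p = 0.00305). SPRED1 (0.80 ± 0.57), SPRED2 (0.57 ± 0.30) and ETV5 (−0.22 ± 0.24) did not pass, with adjusted p of 0.373, 0.204 and 0.618, though SPRED2 passed as the mean over the 3 shRNAs (0.59, adjusted p = 0.00629). For these alternatives no share of all genes called is given, so the gained calls cannot be read as particular to DUSP6 and SPRED2.

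**Figure D2:**
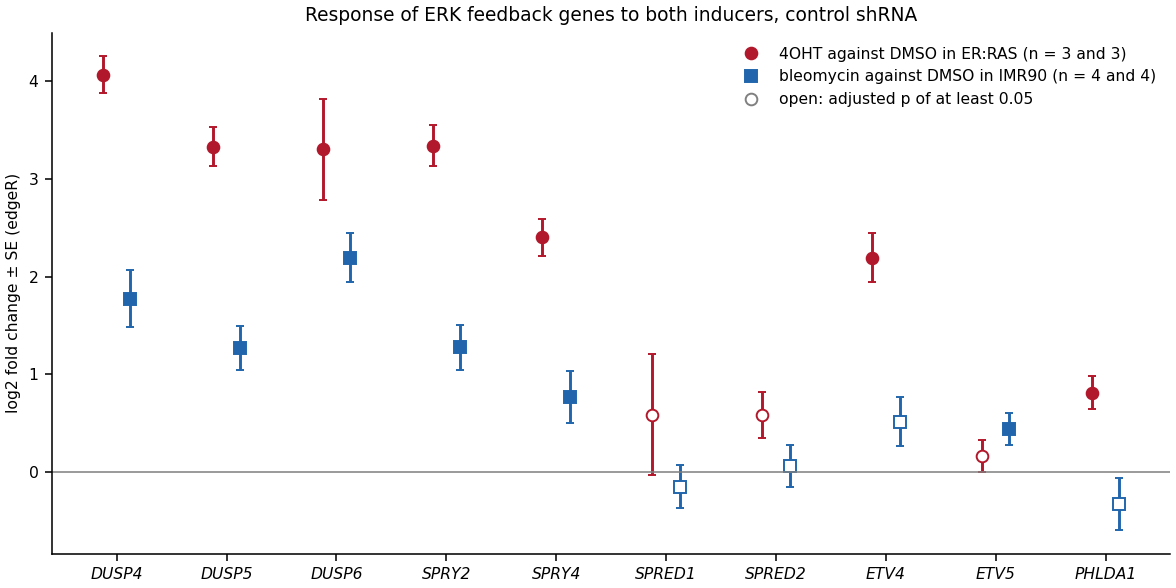
Log2 fold change ± SE of each gene with the control shRNA, for 4OHT against DMSO in ER:RAS cells (circles, 3 libraries each) and bleomycin against DMSO in IMR90 cells (squares, 4 libraries each). Filled symbols passed the test, and the distance between the symbols is widest for DUSP4 (4.07 and 1.78), DUSP5 (3.33 and 1.27) and SPRY2 (3.34 and 1.28), while ETV5 is the only gene with the higher value for bleomycin.

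The senescent groups themselves were also compared, 3 RAS-senescent against 4 bleomycin-senescent libraries with the control shRNA, in the same fit and with the same limit on line and treatment. Of the 10 genes 8 were higher in RAS-senescent cells, against 23.3% of all genes. DUSP4 was 9.89-fold higher, ETV4 7.35-fold, DUSP5 7.08-fold, SPRY2 5.29-fold, SPRY4 4.97-fold, DUSP6 3.96-fold, PHLDA1 2.25-fold and SPRED2 1.66-fold. The SPRED2 call (0.73 ± 0.21 on the log2 scale, adjusted p = 0.00481) was lost without 4OHT replicate 3 (adjusted p = 0.0536) and when only the compared libraries were fitted (adjusted p = 0.0669). SPRED1 differed by 0.30 ± 0.40 and ETV5 by 0.35 ± 0.17 (SE, adjusted p = 0.553 and 0.0876). The libraries of ETV5 nevertheless did not overlap, which was true of 18.8% of all genes in this direction and of every gene of the set except SPRED1 and SPRED2. The median over the 10 genes was 2.15 and that over all genes −0.12.

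The DMSO baselines of the lines, measured on the same DMSO libraries that entered the responses, differed less. With the control shRNA, ETV4 was the only gene called, higher in ER:RAS DMSO cells than in IMR90 DMSO cells by 1.12 ± 0.26 on the log2 scale (SE, adjusted p = 0.0449), a direction in which 0.222% of all genes were called. Its libraries stood at 23.1, 34.6 and 23.4 CPM in ER:RAS and at 17.4, 10.9, 9.15 and 12.3 CPM in IMR90, with no overlap. The call was lost with DESeq2's size factors (adjusted p = 0.0537), with no filter on low counts (0.0611), with only the compared libraries (0.223), and without any one library other than IMR90 DMSO replicate 1 (0.0675 to 0.294).

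At an unadjusted p under 0.05, 6 genes were higher in ER:RAS DMSO cells, beside 11.5% of all genes in either direction. They were DUSP4 at 0.94 ± 0.26, DUSP5 at 0.69 ± 0.21, DUSP6 at 0.80 ± 0.33, SPRY4 at 0.62 ± 0.24, ETV5 at 0.57 ± 0.17 and ETV4. The adjusted p of the first 5 lay between 0.113 and 0.369. Without overlap of libraries, 5 genes were higher in ER:RAS DMSO cells (DUSP4, DUSP5, SPRY2, SPRY4 and ETV4), against 5.8% of all genes. The DUSP4 levels of 6.67, 9.12 and 6.74 CPM, for example, all exceeded the IMR90 DMSO levels of 5.15, 3.03, 3.86 and 3.58 CPM. SPRED1 at −0.49 ± 0.40, SPRED2 at 0.17 ± 0.21, SPRY2 at 0.27 ± 0.22 and PHLDA1 at −0.03 ± 0.23 did not pass even unadjusted. The median over the 10 genes was 0.60, beside −0.00 over all genes.

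The COPB2 shRNA libraries gave further readings of the baselines. With COPB2 shRNA 1, DUSP4 was called at 1.197 ± 0.26 (SE, adjusted p = 0.0413, beside 0.118% of all genes called higher), and 6 genes did not overlap, against 4.76%. With COPB2 shRNA 2, ETV4 was called at 1.16 ± 0.26 (SE, adjusted p = 0.0431, beside 0.196%), and 6 genes did not overlap, against 6.63%. The 6 were DUSP4, DUSP5, SPRY2, SPRY4, ETV4 and ETV5 in both. Both calls were lost with DESeq2's size factors, with no filter on low counts and with only the compared libraries, and that of DUSP4 with COPB2 shRNA 1 also when any one library was left out. When the difference was averaged over the 3 shRNAs, a contrast chosen after seeing the data, 6 genes passed, against 18.4% of all genes. DUSP4 then differed by 1.05 ± 0.15, ETV4 by 1.13 ± 0.15, DUSP6 by 0.72 ± 0.19, ETV5 by 0.65 ± 0.10, DUSP5 by 0.63 ± 0.12 and SPRY4 by 0.62 ± 0.14 (SE, adjusted p between 6.16e-06 and 0.00986). SPRY2 stood at 0.32 ± 0.12 (SE, adjusted p = 0.0535). These averages counted the libraries of the 3 shRNAs as independent. Same-numbered libraries mostly deviated together (median r of 0.552 in ER:RAS and 0.347 in IMR90), so the SEs may be too small. The fusion protein and any other difference between the lines cannot be told apart here.

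**Figure D3:**
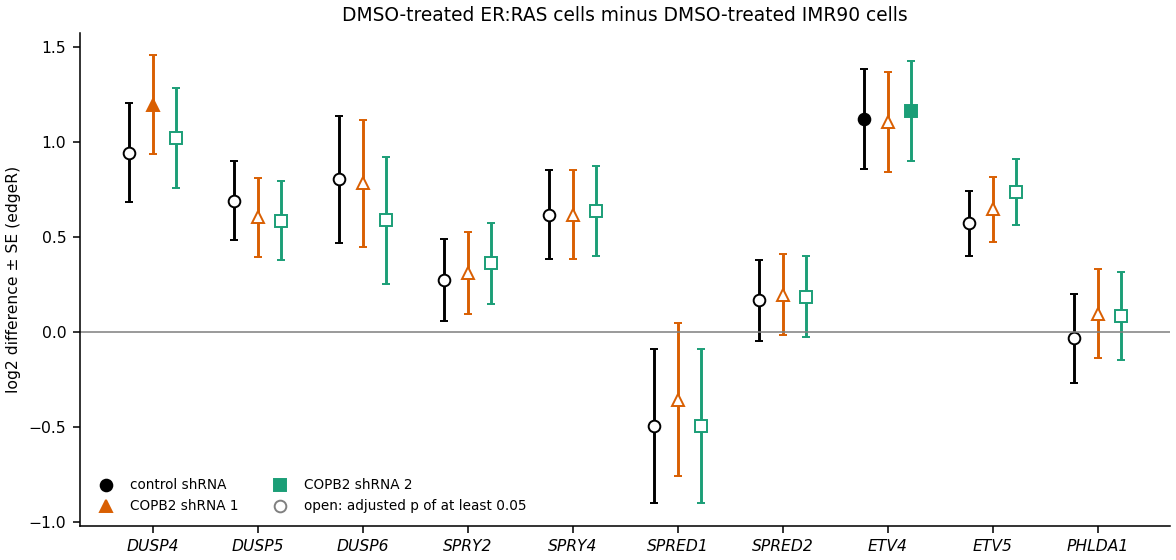
Log2 difference ± SE between DMSO-treated ER:RAS and DMSO-treated IMR90 cells for each gene and shRNA (3 and 4 libraries). Filled symbols passed the test (ETV4 with the control shRNA and with COPB2 shRNA 2, and DUSP4 with COPB2 shRNA 1). Values for all genes except SPRED1 and PHLDA1 lie above 0 with all 3 shRNAs.

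Over all 3 shRNAs, DUSP4 ran from 95.3 to 149 CPM in the 9 ER:RAS 4OHT libraries, from 8.31 to 27.4 CPM in the 12 bleomycin libraries, from 5.72 to 9.12 CPM in the 9 ER:RAS DMSO libraries and from 2.29 to 5.15 CPM in the 12 IMR90 DMSO libraries. SPRY2 had the same order, at 198 to 261, 28.004 to 64.7, 17.98 to 28.3 and 15.8 to 20.3 CPM. As ranges, the lowest DUSP4 bleomycin library lay just inside the ER:RAS DMSO range, and the SPRY2 ranges touched at the lower end as well. DUSP5 (60.5 to 122 CPM with bleomycin, 44.3 to 61.1 CPM in ER:RAS DMSO) and SPRY4 (23.01 to 86.3 and 29.1 to 38.5 CPM) also overlapped between those states. DUSP6 overlapped between the DMSO states, at 22.99 to 67.5 and 21.5 to 34.6 CPM.

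ETV4 was ordered differently. It ran from 84.7 to 175 CPM in ER:RAS 4OHT, from 18.95 to 34.6 CPM in ER:RAS DMSO, from 14.8 to 34.3 CPM with bleomycin and from 9.15 to 17.4 CPM in IMR90 DMSO. Its ER:RAS DMSO libraries, which received no inducer, had a median of 25.96 CPM beside 19.7 CPM in bleomycin-treated cells. For PHLDA1, the 4OHT libraries (996 to 1225 CPM) alone stood apart, and for SPRED1, SPRED2 and ETV5 each state overlapped its neighbour in the order.

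Per kilobase of the canonical transcript, a scale that allows for transcript length, DUSP5 led in RAS-senescent cells at 246 CPM per kb, followed by PHLDA1 at 195, DUSP6 at 136 and SPRY2 at 94.9. ETV4 (56.9), SPRY4 (41.8), ETV5 (29.6) and DUSP4 (24.2) followed, and SPRED2 (15.5) and SPRED1 (8.02) were lowest. In ER:RAS DMSO cells PHLDA1 led at 104 CPM per kb and DUSP4, the gene with the largest fold change with 4OHT, was last at 1.35. In IMR90 DMSO cells the same genes were first and last, at 106 and 0.703 CPM per kb. Which transcripts of each gene these cells made was not measured, so close ranks on this scale are uncertain.

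The treatment responses recurred with the COPB2 shRNAs. Same-numbered libraries of different shRNAs mostly deviated together, so these may not be independent repeats. The RAS response called 8 of the 10 genes with shRNA 1, against 15.4% of all genes, and 7 with shRNA 2, against 14.9%. The 7 genes called with the control shRNA were called with both, and shRNA 1 added SPRED2 at 0.69 (adjusted p = 0.0294). The log2 fold changes lay close together over the 3 shRNAs, from 4.01 to 4.22 for DUSP4, 3.33 to 3.69 for DUSP5, 3.30 to 3.48 for DUSP6, 3.15 to 3.34 for SPRY2, 2.40 to 2.57 for SPRY4 and 1.99 to 2.19 for ETV4. The bleomycin response called 7 genes with each COPB2 shRNA, against 17.4% and 21.7% of all genes. ETV4 was added to the 6 in both, at 0.92 and 0.91. DUSP4 ranged from 1.78 to 2.46 and DUSP6 from 2.20 to 2.68 over the 3 shRNAs. SPRED1 was not called with any shRNA in either response. As the mean over the 3 shRNAs, chosen after seeing the data, ETV5 passed in the RAS response (0.27, adjusted p = 0.0260) and between the senescent groups (0.41, adjusted p = 0.000502), and ETV4 passed with bleomycin (0.78, adjusted p = 6.26e-05). No share of all genes called is given for this average in these comparisons. At baseline it called 18.4% of all genes higher, beside 0.222% with the control shRNA. These calls therefore cannot be read as particular to ETV4 and ETV5.

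COPB2 depletion moved none of the 10 genes past the test. Each of the 2 shRNAs was compared with the control shRNA in each of 4 states, using the same control libraries for both. Of the 80 tests of these genes, 0 passed with edgeR, 0 with DESeq2's Wald test and 0 reached an unadjusted p under 0.05, the smallest being 0.0595. Across all genes, the share called with shRNA 1 and 2 was 0.00699% and 0.00699% in ER:RAS DMSO, 0.14% and 0.224% in ER:RAS 4OHT, 0.00676% and 0.00676% in IMR90 DMSO and 0.00676% and 0.0744% in bleomycin-treated cells. The log2 fold changes of the 10 genes ran from −0.44 to 0.38 with SEs of 0.16 to 0.61, and changes within the reach of these SEs were not detectable. These fits took no account of the replicate numbers, although same-numbered libraries mostly deviated together. The difference of the knockdown effect between senescent and DMSO cells was tested in 4 contrasts and called 0 of the 40 values with edgeR, 0 with DESeq2's Wald test and 0 at an unadjusted p under 0.05, beside 0% of all genes. These ran from −0.22 to 0.69 with SEs of 0.23 to 0.87.

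The genes did not vary alike among libraries of one group. The SD of log2 CPM within groups reached 0.985 for SPRED1 in ER:RAS DMSO cells, and ran from 0.345 to 0.718 for DUSP6 in ER:RAS groups, while SPRY2 stayed between 0.114 and 0.225 in ER:RAS groups. This did not hold with bleomycin, where SPRY2 ran from 0.419 to 0.515 and DUSP6 from 0.412 to 0.518. In IMR90 DMSO groups the ranges were 0.071 to 0.099 and 0.179 to 0.219. In ER:RAS cells replicate 3 was the highest library in 6 of 6 groups for DUSP6, SPRED1 and PHLDA1, and in IMR90 cells replicate 3 was the highest in 6 of 6 groups for SPRED1. After removal of group means, over the 42 libraries, DUSP6 rose and fell with SPRED1 (Pearson r = 0.759), DUSP4 with SPRY4 (0.776) and SPRY4 with SPRED2 (0.779). SPRED1 ran against ETV4 (−0.750) and ETV5 (−0.705). The libraries of a replicate number may share a culture or a preparation, and the source of these shared shifts was not tested.

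**Figure D4:**
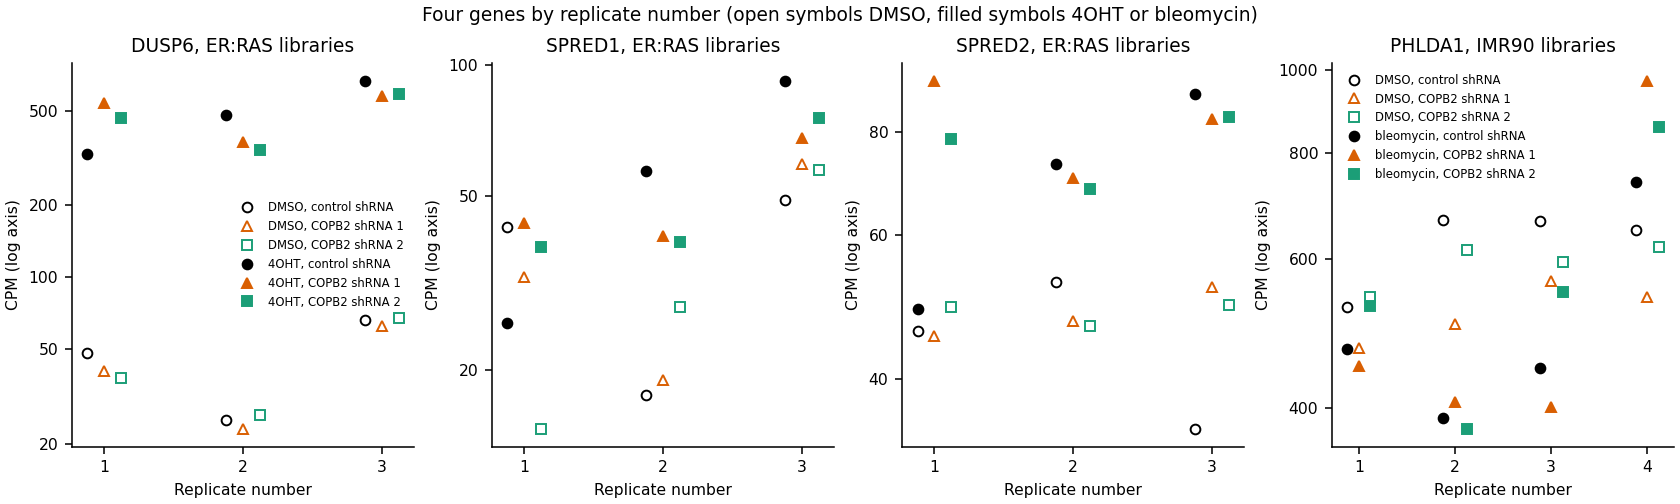
CPM (log axis) of DUSP6, SPRED1 and SPRED2 in ER:RAS libraries and of PHLDA1 in IMR90 libraries, by replicate number, with open symbols for DMSO and filled ones for 4OHT or bleomycin. DUSP6 and SPRED1 are highest in replicate 3 of all 6 groups, and PHLDA1 with bleomycin is at 739 to 972 CPM in replicate 4 and at 378 to 549 CPM in the others.

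Other genes of the pathway were taken from fixed lists and set beside the shares over all genes, 15.5% higher and 20.2% lower in RAS senescence and 15.4% and 15.8% with bleomycin. Among 20 transcriptional targets of ERK, 18 were higher and 1 lower in RAS senescence, with a median log2 fold change of 1.89 beside −0.08 over all genes, and 12 were higher and none lower with bleomycin, with a median of 1.01 beside −0.01. SPHK1, the kinase that makes sphingosine 1-phosphate, rose by 5.12 ± 0.43 and 1.12 ± 0.26 (SE, adjusted p = 2.90e-07 and 0.00193). EPHA4, an ephrin receptor, fell by 1.13 ± 0.29 in RAS senescence (SE, adjusted p = 0.00719) and was at −0.45 ± 0.21 with bleomycin (adjusted p = 0.106). Of the 5 ligands tested (TGFA was too low), 4 and 5 were higher, with medians of 3.62 and 2.80. AREG, an EGF receptor ligand, rose by 9.06 ± 0.37 and 4.17 ± 1.28 and FGF2 by 2.41 ± 0.87 and 2.53 ± 0.67 (SE, adjusted p between 2.68e-10 and 0.0417). Of 6 receptors, 5 were lower in RAS senescence and 3 with bleomycin. The hepatocyte growth factor receptor MET was at −2.33 ± 0.57 and −0.71 ± 0.25, and PDGFRA, a receptor for platelet-derived growth factor, at −1.35 ± 0.50 and −1.17 ± 0.28 (SE, adjusted p between 0.00250 and 0.0461).

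The relatives of the 10 genes held calls in both directions, to be read against the same shares of 15.5% and 20.2% in RAS senescence and 15.4% and 15.8% with bleomycin. Of 9 other MAP kinase phosphatases, 3 were higher and 1 lower in RAS senescence, and of 8 tested with bleomycin 2 were higher and 1 lower, with medians of 0.40 and 0.25. DUSP1, which acts on several MAP kinases, rose by 2.12 ± 0.17 and 1.10 ± 0.20, whereas DUSP10, a phosphatase of p38 and JNK, fell by 0.57 ± 0.18 in RAS senescence (adjusted p = 0.0188) and was at −0.02 ± 0.11 with bleomycin. Of 10 other feedback inhibitors, 2 were higher and 1 lower in each response. SPRY1 went against SPRY2 and SPRY4, at −2.94 ± 0.23 and −1.99 ± 0.27 (SE, adjusted p = 1.24e-07 and 8.27e-06). ERRFI1, which inhibits the EGF receptor, rose by 3.12 ± 0.43 in RAS senescence (adjusted p = 4.38e-05) and was at 0.11 ± 0.13 with bleomycin (adjusted p = 0.545). Of 7 other ETS factors, 2 and 1 were higher. ETS1 was at 1.66 ± 0.46 (adjusted p = 0.0104) and −0.26 ± 0.22, and ETS2 rose by 0.79 ± 0.15 and 0.67 ± 0.18.

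Of 18 core genes of the chain itself, 4 were higher and 1 lower in RAS senescence, with a median of 0.25, and 4 were higher with bleomycin, with a median of −0.06, beside the same shares over all genes. The 4 in RAS senescence were the adaptors SHC1 (1.59) and GRB2 (0.69), MAP2K1, which encodes the kinase MEK1 (1.21 ± 0.15, SE, adjusted p = 1.33e-05), and RPS6KA1. With bleomycin MAP2K1 rose by 0.40 ± 0.11 (SE, adjusted p = 0.00565). RPS6KA1, a kinase that ERK activates, rose by 2.00 ± 0.35 in RAS senescence (adjusted p = 0.000386) and was at −0.34 ± 0.25 with bleomycin. KSR1, a scaffold for RAF, MEK and ERK, fell by 1.19 ± 0.20 in RAS senescence (adjusted p = 0.000241) and was at 0.17 ± 0.19 with bleomycin. In the comparison of DMSO baselines, HRAS was the only gene called among all of these lists. Its counts in ER:RAS cells include the introduced fusion transcript, so this call marks the construct.

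**Figure D5:**
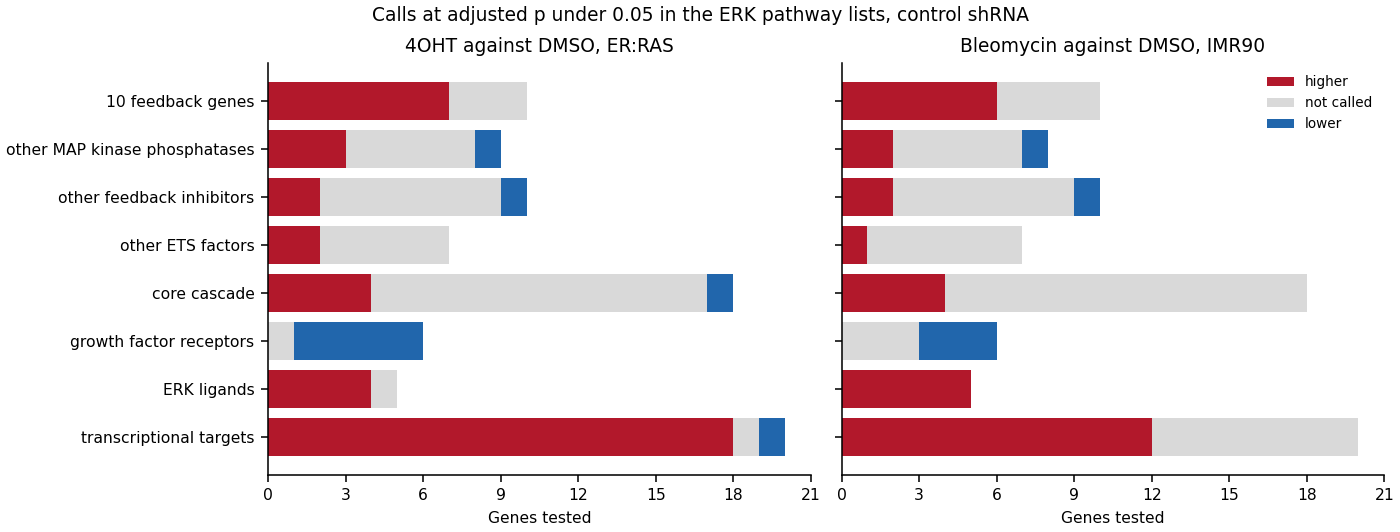
Number of genes higher, not called and lower at an adjusted p under 0.05 in each list (x axis, genes tested), for 4OHT against DMSO in ER:RAS cells and bleomycin against DMSO in IMR90 cells, control shRNA. The 10 feedback genes (7 and 6 higher) and the 20 transcriptional targets (18 and 12 higher) hold no more than 1 call for a lower level, whereas growth factor receptors hold calls for lower levels (5 and 3 of 6).

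Marker genes of fibroblasts moved with both treatments. Of 8, VIM was higher and 6 were lower in RAS senescence, and 6 were lower with bleomycin, directions in which 20.2% and 15.8% of all genes were called lower and 15.5% higher in RAS senescence. Their summed level was 14370 to 24430 CPM in ER:RAS 4OHT, 15790 to 26010 CPM in ER:RAS DMSO, 7908 to 20880 CPM with bleomycin and 19030 to 27490 CPM in IMR90 DMSO libraries. VIM alone held 11376 to 19832 CPM of the sum in ER:RAS 4OHT and 4591 to 8401 CPM in ER:RAS DMSO libraries. The 3 endothelial markers PECAM1, CDH5 and VWF rose in RAS senescence to a sum of 8.65 to 13.7 CPM from 1.11 to 4.44 CPM, with PECAM1 and CDH5 at no more than 2.91 and 3.10 CPM in any library. The leukocyte list rose to 81.7 to 120.3 CPM from 17.03 to 43.4 CPM and, with bleomycin, to 54.3 to 105 CPM from 12.2 to 29.02 CPM. CD68, a lysosomal protein that fibroblasts also make, carried nearly all of that sum. The part of these markers in the results was not tested. With bleomycin, CDH1 and PTPRC were also called higher, at no more than 0.862 and 1.964 CPM. Of the senescence markers, the cell cycle inhibitor CDKN1A rose by 2.48 and 2.58 on the log2 scale in RAS and bleomycin senescence, while the proliferation marker MKI67 was at −6.65 and −3.05 and the lamin gene LMNB1 at −2.53 and −2.53, all called. CDKN2A rose by 1.60 in RAS senescence and was at −0.27 with bleomycin, where it did not pass. In these bulk libraries, fewer cells of a type and less RNA per cell cannot be told apart.

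Over the 12 group means of log2 CPM, the genes outside the set whose profile was most like the mean standardised profile of the 10 were MAP2K1 (MEK1 of the same chain, Pearson r = 0.9971), SLCO4A1 (0.9967), DDIT4L (0.9964), TNIP3 (0.9963) and CSRNP1 (0.9960). They came from 11077 genes whose group means spanned at least 1 log2 unit. The profile was a common one, since 1790 of these genes had r over 0.9.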

How the data were processed

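RNA sequencing was done on 42 libraries of IMR90 and IMR90 ER:RAS cells (polyA-selected RNA, directional single-end reads). The authors deposited raw counts, one value per symbol and library, with no normalization. The submitters' processing notes name the build hg38, DRAGEN, STAR 2.7.8a and DESeq2 1.32.0, whereas the methods of the study name the build hg19 and other tools, so the coordinates given here come from RefSeq on GRCh38.p14 and not from the counting. All 10 symbols matched RefSeq, as did 26986 of the 28266. How reads of overlapping genes were counted is not given in the sources used here. Depth was 13148194 to 23597310 counts per library.

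Counts were fitted with edgeR 4.0.16 in R 4.3.3 (filterByExpr, TMM scaling, robust quasi-likelihood F-test, two-sided, Benjamini-Hochberg over all genes, called under 0.05). ER:RAS libraries (18), IMR90 libraries (24) and all 42 were fitted separately, the last for comparisons between lines. SEs were derived from the fold change and F. The 95% intervals come from these SEs by a normal approximation. CPM values use the scaling of the fit of all libraries. Each treatment comparison within a line shares its DMSO libraries with the comparison of responses and of baselines. The script was tested on simulated counts. Alternatives were DESeq2 1.42.0 (size factors, Wald test), no filter, a fold threshold, a replicate block, only the compared libraries, and each library left out. No 2 columns were identical. All 10 genes were named in every comparison, and from each pathway list the called genes with the highest and the lowest RAS response among those averaging 100 counts or more in the group where they were higher. The genes and lists were chosen with earlier results of these data known.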

Additional observations from a re-analysis of the deposited data

Results flagged for a closer look

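In groups of 4 libraries, 6 of 60 tests over the 10 genes had 1 library farther from the rest than Dixon's criterion allows, where chance alone gives about 1 in 20. The gap to the nearest library, as a share of the group's range, was 0.875 for DUSP6 in bleomycin control replicate 2, the lowest at 78.7 CPM, and 0.831 for ETV4 in bleomycin control replicate 1, the highest at 23.1 CPM. It was 0.968 and 0.963 for ETV5 in replicate 1 of the IMR90 DMSO groups with COPB2 shRNA 1 and 2, the highest at 82.6 and 75.95 CPM. For PHLDA1 it was 0.872 in IMR90 DMSO control replicate 1, the lowest at 527 CPM, and 0.918 in bleomycin replicate 4 with COPB2 shRNA 1, the highest at 972 CPM.

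The RAS response differed from the bleomycin response, by a test of the difference itself, for 6 genes. On the log2 scale the difference was 2.36 for DUSP4, 2.13 for DUSP5, 2.13 for SPRY2, 1.69 for SPRY4, 1.76 for ETV4 and 1.2 for PHLDA1. Line and treatment cannot be told apart in these values.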

How the results depend on the processing

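Of the recomputed counts of called genes, 216 stayed within 1.5 times the reported count and 35 did not, and of 720 recomputed fold changes of single genes, 660 kept their direction and their side of the threshold, 25 lost the call, 28 gained one and 7 changed sign. The 216 include 42 left-out fits of the knockdown tests and 42 of their differences, in which 0 calls stayed 0. In those tests 0% to 0.224% of all genes were called, so 0 was the likely count and says little about stability. The baseline between the DMSO groups, with 1 gene called, moved most. With the control shRNA it called 0 genes with DESeq2's size factors, 0 without the filter on low counts, 0 with only the compared libraries, 4 with the replicate block and 6 as the mean over the 3 shRNAs. With COPB2 shRNA 1 it called 0, 0 and 0 genes in the first 3 settings, 2 with DESeq2's Wald test and 3 with the replicate block, and with COPB2 shRNA 2 0, 0, 0, 2 and 5. Leaving out each library gave 0 to 3, 0 to 0 and 0 to 2 genes for these comparisons, 7 to 8 for the RAS response, 4 to 7 for bleomycin, 6 to 7 for their difference, 7 to 8 between senescent groups, 7 to 9 and 7 to 8 for the RAS response and 7 to 7 and 7 to 7 for bleomycin with COPB2 shRNA 1 and 2, and 0 to 0 for the knockdown tests and their differences. Signs turned with a library left out for SPRED1 with bleomycin (−0.29 to 0.0098), SPRED2 with bleomycin (−0.0271 to 0.14), ETV5 in the difference of responses (−0.40 to 0.0199) and SPRED1 between senescent groups (−0.19 to 0.66), and for PHLDA1 at baseline (0.0901 with the replicate block, 0.0502 as the mean over the 3 shRNAs), none of which had a call. The cause was not tested. Same-numbered libraries mostly deviated together (median r of 0.552 in ER:RAS and 0.347 in IMR90, against −0.415 and −0.08 for different numbers; 13 of 18 and 16 of 24 libraries were nearest to their own number), but only 35 of 45 and 45 of 60 such pairs of groups correlated above 0.1 and no label states what a number shares, so the numbers were not treated as pairs. Under the replicate block the RAS response called 8 genes, adding SPRED2 (0.55, adjusted p = 0.0393), bleomycin 7, adding ETV4 (0.53, 0.0144), their difference 7, adding DUSP6 (1.30, 0.00134), the senescent groups 9, adding ETV5 (0.31, 0.0472), and the baseline added DUSP4 (1.02, 0.0244), DUSP5 (0.62, 0.0484) and ETV5 (0.53, 0.0393). Among all these settings, a share of all genes called is given only for the mean over the 3 shRNAs at baseline, at 18.4%. The counts and added calls in the other settings, the replicate block and left-out libraries included, therefore cannot be read as particular to these genes. Whether genes outside the set gained calls to the same degree was not tested. The SEs of the knockdown tests, 0.16 to 0.61 on the log2 scale with 3 or 4 libraries a group, came from fits without the replicate number. With the replicate block the SEs of the RAS response were lower, for example 0.26 for DUSP6 and 0.37 for SPRED1. Without it they were 0.52 and 0.62. The size of change that could be seen therefore depended on the fit as well. With the block, too, none of the 10 genes was called in the knockdown tests or their differences.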

Other observations

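Within the list of 20 transcriptional targets, 6 immediate-early genes, which growth factors switch on within minutes, were higher in RAS senescence and not called with bleomycin. They were singled out for this pattern after their values were seen, so the values are a description with no test. FOS was at 1.91 and −0.68, EGR1 at 1.72 and −0.35, EGR2 at 2.00 and −0.79, EGR3 at 2.42 and −0.27, JUNB at 1.48 and −0.22 and IER2 at 0.98 and −0.12 on the log2 scale. FOSB, of the same class, was higher in both, at 3.64 and 1.49.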
